A study of Mus musculus with 8 samples.

Results

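The insulin-like growth factor (IGF) system was followed here through 9 genes in sorted keratinocytes of resting mouse back skin. They are the ligand gene Igf1, the receptor genes Igf1r and Igf2r, and the binding protein genes Igfbp2, Igfbp3, Igfbp4, Igfbp5, Igfbp6 and Igfbp7. All probes that the platform assigns to these symbols were taken, which gave 13 probes for the 9 genes, of 25697 probes and 16593 genes on the array. A probe counted as detected on an array where its deposited detection p, which compares it with negative control beads, was under 0.05. The 10 probes of 7 members were detected on at least 2 arrays and entered the comparisons, out of 14252 probes and 9545 genes that did so in all. Igf1 and Igfbp2 did not. The members were chosen by symbol with earlier results of these arrays known, and all 3 comparisons between populations count as used in that choice. Differences of members are therefore given as descriptions, without p-values.

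IGF1 is a small secreted growth factor that signals through the receptor tyrosine kinase encoded by Igf1r, which acts through PI3 kinase and Akt and through the MAP kinase cascade. The receptor encoded by Igf2r clears IGF2 from the cell surface and carries lysosomal enzymes tagged with mannose 6-phosphate, and it does not signal as a growth factor receptor. The IGF binding proteins are secreted, hold IGFs in the extracellular space, and can lower or prolong IGF action, while IGFBP7 binds IGFs only weakly. In skin, dermal papilla fibroblasts are a known source of IGF1, and keratinocytes carry its receptor.

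RNA was read on Illumina MouseRef-8 bead arrays. All mice were adult Gli1-eGFP/+ animals in telogen, the resting phase of the hair cycle, on an outcrossed Swiss Webster background. Their eGFP marks cells that express Gli1, both an effector and a target gene of the hedgehog pathway. Viable back skin keratinocytes with surface α6 integrin, which marks basal cells, were sorted, and each replicate pooled 2 mice. Gli1+ cells were GFP-positive and hedgehog-responding (2 arrays, replicates 2 and 3; the RNA of replicate 1 was of poor quality per the labels). CD34+ cells were GFP-negative and positive for CD34, a marker of the follicle bulge (3 arrays). IFE cells were GFP-negative and CD34-negative, described in the labels as mainly interfollicular epidermis and infundibulum (3 arrays).

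Levels are log2 normalised intensities, and the lowest level called detected lay between 5.08 and 5.62 depending on the array. Detected probes numbered 11188 and 9925 in Gli1+ cells, 12209 to 12601 in CD34+ cells and 11027 to 11680 in IFE cells. The pair of Gli1+ arrays stood apart from each other, with a correlation of 0.82 across genes, which are not independent replicates, while CD34+ pairs reached 0.933 to 0.945 and IFE pairs 0.943 to 0.95. Gli1+ arrays correlated at 0.821 to 0.887 with CD34+ arrays and at 0.821 to 0.882 with IFE arrays. The Gli1+ pair was thus no more alike than Gli1+ arrays were to the other populations, which limits every Gli1+ comparison. Gli1 was at 8.82 and 8.36 on the Gli1+ arrays, at 7.06, 8.42 and 7.35 on the CD34+ arrays, and at 5.07, 5.32 and 5.01 on the IFE arrays, so the CD34+ sample of replicate 2 lay within the Gli1+ range. Cd34 was at 8.18 and 8.47 on the Gli1+ arrays and 8.50 to 8.86 in CD34+ cells, against 5.44 to 6.31 in IFE cells, and Itga6, Krt5, Krt14 and Trp63 were detected on all 8 arrays. In a limma fit over all arrays, 458 of 9545 genes passed an adjusted p of 0.05 between CD34+ and IFE cells, 281 higher and 177 lower. Between Gli1+ and IFE cells 206 passed, 124 higher and 82 lower, and between Gli1+ and CD34+ cells 136 passed, 55 higher and 81 lower. The balance depended on the scaling: with median centring the splits were 308 to 91, 174 to 36 and 64 to 83, with cyclic loess 276 to 151, 171 to 49 and 106 to 82, and with the deposited log2 values as they stand 300 to 82, 157 to 12 and 48 to 48. With 2 or 3 arrays per population, a lack of overlap between 2 populations was common. It held for 27.7% of all 9545 genes between CD34+ and IFE cells. The shares were 31.6% for Gli1+ against IFE cells and 31.4% for Gli1+ against CD34+ cells. The 3 comparisons share their samples pairwise and are not independent, and the tests measure only the spread between these pooled samples.

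With the probe used for each gene, CD34+ cells had higher levels of Igfbp5, Igfbp7, Igfbp4 and Igf2r than IFE cells. The other Igfbp4 probe was highest in Gli1+ cells, and the second Igf2r probe overlapped between populations. Igf1r, near the detection limit, had its highest normalised levels in IFE cells. Of the 7 members compared, 2 passed the threshold between CD34+ and IFE cells, Igfbp5 and Igfbp7, both higher in CD34+ cells, beside 4.80% of all genes. None of the 7 passed between Gli1+ and IFE cells, beside 2.16% of all genes. Between Gli1+ and CD34+ cells 1 passed, Igfbp5, lower in Gli1+ cells, beside 1.42% of all genes. Since these comparisons were used in choosing the genes, nothing is read from the counts.

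**Figure D1:**
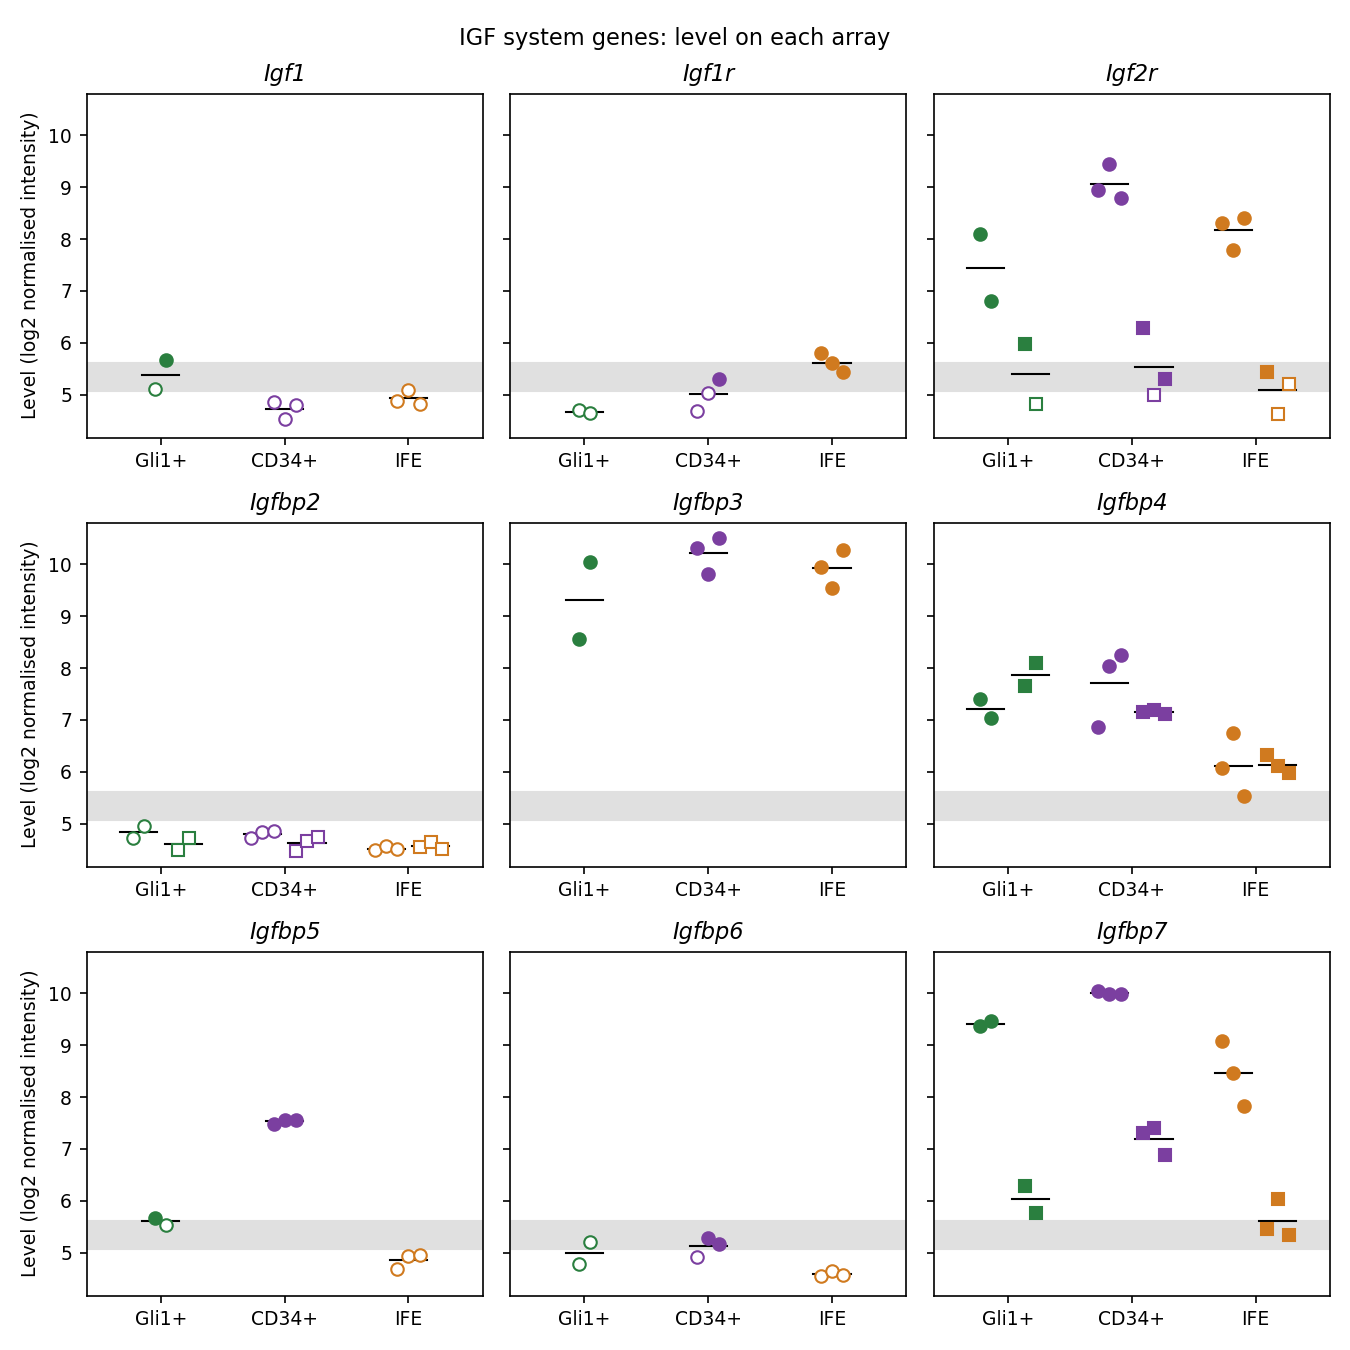
Level (log2 normalised intensity) of each IGF system gene on each array, by sorted population from left to right Gli1+ (2 arrays), CD34+ (3) and IFE (3). Circles show the probe used for the gene and squares its other probe, filled symbols are detected and open symbols not, black lines are group means, and the grey band is the range of lowest detected levels, 5.08 to 5.62. Igfbp5 lies above the band on all 3 CD34+ arrays and below it on all 3 IFE arrays, while Igfbp2 is open on every array.

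Promoters are shown for Igfbp5, Igfbp7 and Igfbp4, the binding protein genes with the 3 largest CD34+ minus IFE differences. Each run covers 250 bases before to 50 after the RefSeq start of the gene (GRCm38.p6), and all 9 members had an entry in that table. The Igfbp5 window is chr1:72874816-72875115 on the minus strand, the Igfbp7 window chr5:77407996-77408295 on the minus strand, and the Igfbp4 window chr11:99040994-99041293 on the plus strand. Capitals mark exact matches, on either strand, to a TATA box (TATAAA), a GC box (GGGCGG) or the core of NFAT sites (GGAAA).
Igfbp5: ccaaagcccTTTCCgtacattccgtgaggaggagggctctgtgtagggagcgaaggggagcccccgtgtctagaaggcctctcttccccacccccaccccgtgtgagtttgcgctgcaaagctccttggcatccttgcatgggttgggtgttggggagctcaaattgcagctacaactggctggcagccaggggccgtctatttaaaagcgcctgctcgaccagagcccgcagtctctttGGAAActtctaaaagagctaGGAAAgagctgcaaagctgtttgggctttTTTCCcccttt
Igfbp7: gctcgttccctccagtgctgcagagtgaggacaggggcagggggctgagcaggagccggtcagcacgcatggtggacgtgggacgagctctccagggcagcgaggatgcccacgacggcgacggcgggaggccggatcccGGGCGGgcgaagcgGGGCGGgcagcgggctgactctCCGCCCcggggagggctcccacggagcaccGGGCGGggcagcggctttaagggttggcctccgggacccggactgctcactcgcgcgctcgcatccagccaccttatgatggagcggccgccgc
Igfbp4: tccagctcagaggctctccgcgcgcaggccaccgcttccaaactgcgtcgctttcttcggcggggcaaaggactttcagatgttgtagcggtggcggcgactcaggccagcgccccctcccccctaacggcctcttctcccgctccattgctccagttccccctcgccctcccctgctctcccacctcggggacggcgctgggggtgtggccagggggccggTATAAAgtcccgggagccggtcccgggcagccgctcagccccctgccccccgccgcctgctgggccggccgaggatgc
The Igfbp5 window held 4 matches to GGAAA, the Igfbp7 window 4 to GGGCGG and the Igfbp4 window 1 to TATAAA, so no word was common to these windows. Among all 32851 promoters of the same length, GGAAA was present in 61.3%, GGGCGG in 35.7% and TATAAA in 13.6%. The GLI consensus GACCACCCA, present in 0.3% of promoters, was in no window of the 9 members. Each printed window held matches to 1 word only, so none overlapped a match to another word, although GGGCGG and GGAAA can share their GG. A match only says that the letters are there.

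The ligand gene Igf1 was close to background in all 3 populations. Its probe had levels of 5.11 and 5.67 on the Gli1+ arrays, 4.86, 4.54 and 4.81 on the CD34+ arrays and 4.89, 5.10 and 4.83 on the IFE arrays. Only the Gli1+ sample of replicate 3 was detected, and the other values have no order. The fibroblast markers Dcn and Vim were likewise detected on that array alone, at 7.75 and 6.37, against 4.63 and 4.72 on the Gli1+ array of replicate 2 and at most 5.04 and 4.99 on any CD34+ or IFE array. Of the other fibroblast markers, Col6a1, Sparc and Thy1 were detected there, and Col1a1, Col1a2, Col3a1, Pdgfra, Lum, Twist2, Corin and Crabp1 were not. Col1a2 was at 4.65 there, against 7.23 on the Gli1+ array of replicate 2. Macrophages are a known source of IGF1, and the list of 8 Langerhans cell and macrophage markers, 6 of them on the array, had a summed linear level of 1041 to 1409 in Gli1+ cells, 601.1 to 711.3 in CD34+ cells and 400.2 to 624.4 in IFE cells. The 5 tested markers of that list had their highest mean in Gli1+ cells, and none of them passed a comparison. Lyz2, the untested marker, was detected on 1 array and had its lowest mean in Gli1+ cells. Its means were 4.525 in Gli1+, 4.606 in CD34+ and 4.854 in IFE cells. The part of either cell type in the Igf1 values was not tested. The gene of the second ligand, Igf2, was detected on 1 array, with levels of 4.46 and 5.16 in Gli1+ cells, 4.61 to 5.27 in CD34+ cells and 4.65 to 4.74 in IFE cells.

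Igf1r, the signalling receptor, was detected on every IFE array and on no Gli1+ array. Its levels were 4.71 and 4.65 on the Gli1+ arrays, 4.69, 5.03 and 5.31 on the CD34+ arrays and 5.81, 5.61 and 5.44 on the IFE arrays. These normalised IFE values lay above all others, and 1 of the 3 CD34+ samples, replicate 3, was detected. In raw bead intensity that sample, at 138.5, lay within the IFE values of 138.6, 136.9 and 142.1. Igf1r entered the comparisons only through the IFE arrays, and all its levels were near the detection limit. The CD34+ minus IFE difference was -0.61 ± 0.27 (log2, SE), 1.53-fold lower in CD34+ cells, and the Gli1+ minus IFE difference was -0.94 ± 0.31. Where no sample of the dimmer group was detected, a fold is given as a lower bound against the detection limit, and Gli1+ cells were at least 1.11-fold lower than IFE cells in this gene. Gli1+ and CD34+ values overlapped, with a difference of -0.33 ± 0.31. In bulk arrays of sorted cells, fewer cells that express a gene and less RNA per cell cannot be told apart.

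Igf2r, the IGF2 clearance and mannose 6-phosphate receptor, was highest in CD34+ cells. The probe used for the gene had levels of 8.09 and 6.81 on the Gli1+ arrays, 8.94, 9.45 and 8.79 on the CD34+ arrays and 8.31, 7.78 and 8.41 on the IFE arrays. All CD34+ values exceeded every other value, and the pair of Gli1+ samples differed from each other by more than the 3 samples of either other population did. CD34+ cells exceeded IFE cells by 0.89 ± 0.38, 1.85-fold. Gli1+ cells were 3.05-fold lower than CD34+ cells, a difference of -1.61 ± 0.42, and this difference was -2.25 without the Gli1+ sample of replicate 2, where it passed the threshold, and -0.97 without that of replicate 3. A single Gli1+ array remains in such a fit and is assumed to vary like the other populations, and the genes called over the whole table then numbered 1196, against 136 with all arrays. Gli1+ and IFE values overlapped, at -0.72 ± 0.42, and the difference was -1.36 without Gli1+ replicate 2 and -0.08 without Gli1+ replicate 3. A second Igf2r probe was near the detection limit, at 5.98 and 4.83 on the Gli1+ arrays, 6.28, 5.00 and 5.31 on the CD34+ arrays and 5.44, 4.63 and 5.22 on the IFE arrays. The populations overlapped in that probe, which gave 0.44 ± 0.43 for CD34+ minus IFE, 0.31 ± 0.49 for Gli1+ minus IFE and -0.13 ± 0.49 for Gli1+ minus CD34+. The Gli1+ to IFE direction thus differed between the probes.

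Igfbp5 had the largest difference of the members between CD34+ and IFE cells. IGFBP5 is a secreted binding protein that also attaches to extracellular matrix. Its only probe had levels of 5.67 and 5.54 on the Gli1+ arrays, 7.48, 7.56 and 7.56 on the CD34+ arrays and 4.69, 4.94 and 4.96 on the IFE arrays. It was detected on all 3 CD34+ arrays, on the Gli1+ array of replicate 2 and on no IFE array, and no 2 populations overlapped. Igfbp5 thus met the detection filter only through the CD34+ arrays, where it is high. Group means were 5.61 ± 0.10 in Gli1+ cells (SD, n = 2), 7.53 ± 0.04 in CD34+ cells (SD, n = 3) and 4.86 ± 0.15 in IFE cells (SD, n = 3). In raw bead intensity the means were 145.2, 290.7 and 115.5 in Gli1+, CD34+ and IFE cells. CD34+ cells exceeded IFE cells by 2.67 ± 0.25, at least 4.79-fold. Gli1+ cells lay 0.74 ± 0.28 above IFE cells and were 3.80-fold lower than CD34+ cells (-1.93 ± 0.28, with 1 of the 2 Gli1+ samples detected). No fold is given for Gli1+ against IFE cells, since the Gli1+ sample of replicate 3 was not detected either.

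The higher Igfbp5 in CD34+ than in IFE cells passed the threshold under all 18 alternative settings tried, at differences of 1.26 without background correction to 2.72. The lower Igfbp5 in Gli1+ than in CD34+ cells passed under 11 of 18. It did not pass with the replicate number as a block or with array weights, nor without any single CD34+ sample, IFE replicate 2 or IFE replicate 3, while the difference without any 1 sample stayed between -1.99 and -1.86. For CD34+ minus IFE, leaving out Gli1+ replicate 2 or Gli1+ replicate 3 gives the same fit. All settings reuse the arrays known when the genes were chosen. Such counts, here and for Igfbp7, describe dependence on processing and are no further evidence for a difference.

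Igfbp7, which encodes a matrix-associated protein abundant around blood vessels, followed the same order of populations. The probe used had levels of 9.37 and 9.45 on the Gli1+ arrays, 10.04, 9.98 and 9.97 on the CD34+ arrays and 9.08, 8.46 and 7.82 on the IFE arrays. No populations overlapped, and the IFE samples were the most spread, with an SD of 0.63 against 0.04 among CD34+ samples. CD34+ cells exceeded IFE cells by 1.55 ± 0.33, 2.92-fold. Gli1+ cells lay 0.96 ± 0.37 above IFE cells, 1.94-fold, and 1.51-fold below CD34+ cells (-0.59 ± 0.37). A second probe, at 6.29 and 5.77 on the Gli1+ arrays, 7.30, 7.40 and 6.88 on the CD34+ arrays and 5.47, 6.04 and 5.35 on the IFE arrays, gave 1.57 ± 0.32 for CD34+ minus IFE and -1.16 ± 0.35 for Gli1+ minus CD34+. In that probe Gli1+ and IFE values overlapped, at 0.41 ± 0.35. The CD34+ minus IFE difference of the first probe passed the threshold under 13 of 18 alternatives and not without any single CD34+ sample, IFE replicate 2 or IFE replicate 3, at 1.23 to 1.86 without any 1 sample.

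Igfbp4, whose protein mostly holds IGFs away from their receptor, was higher in Gli1+ and in CD34+ cells than in IFE cells with either probe. The probe used had levels of 7.39 and 7.05 on the Gli1+ arrays, 6.86, 8.04 and 8.26 on the CD34+ arrays and 6.07, 6.74 and 5.55 on the IFE arrays. CD34+ cells lay 1.60 ± 0.43 above IFE cells, 3.03-fold, and Gli1+ cells 1.10 ± 0.48 above them, 2.15-fold, without overlap in either case. The CD34+ minus IFE difference passed the threshold when Gli1+ replicate 2 or Gli1+ replicate 3 was left out, at 1.60, without CD34+ replicate 1, at 2.03, with array weights and with the mean of its probes, but not in the fit as described above. Leaving out Gli1+ replicate 2 or Gli1+ replicate 3 gives the same fit for CD34+ minus IFE, so these are no separate alternatives. The other probe had levels of 7.65 and 8.09 on the Gli1+ arrays, 7.16, 7.20 and 7.12 on the CD34+ arrays and 6.32, 6.11 and 5.98 on the IFE arrays. It gave 1.02 ± 0.27 for CD34+ minus IFE, 2.03-fold, and 1.73 ± 0.30 for Gli1+ minus IFE, 3.32-fold, the second of which passed the threshold when every probe was fitted on its own. The probes disagreed on the order of Gli1+ and CD34+ cells, with -0.50 ± 0.48 and overlapping values in the first and 0.71 ± 0.30 without overlap in the second.

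Igfbp3 encodes the main IGF carrier of serum, and its levels overlapped between all populations. They were 8.56 and 10.05 on the Gli1+ arrays, 10.32, 9.82 and 10.50 on the CD34+ arrays and 9.94, 9.53 and 10.27 on the IFE arrays. The Gli1+ sample of replicate 2 was the lowest, and that of replicate 3 lay among the other populations. The differences were 0.30 ± 0.41 for CD34+ minus IFE, -0.61 ± 0.46 for Gli1+ minus IFE and -0.91 ± 0.46 for Gli1+ minus CD34+. The Gli1+ minus IFE value was 0.13 without Gli1+ replicate 2 and -1.36 without Gli1+ replicate 3, so its direction rested on replicate 2.

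Igfbp6 and Igfbp2 were at or under the detection limit. IGFBP6 prefers IGF2 over IGF1, and its gene was detected on 2 of 3 CD34+ arrays and on no other, with levels of 4.79 and 5.20 on the Gli1+ arrays, 4.93, 5.28 and 5.18 on the CD34+ arrays and 4.55, 4.64 and 4.58 on the IFE arrays. It entered the comparisons only through those CD34+ arrays. The measured means were 4.99 in Gli1+, 5.13 in CD34+ and 4.59 in IFE cells, and no fold is given, since the lower bound would be under 1. Igfbp2, a binding protein gene that lies on the same chromosome as Igfbp5, was detected on no array with either of its 2 probes, whose levels ran between 4.48 and 4.95 over all arrays.

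**Figure D2:**
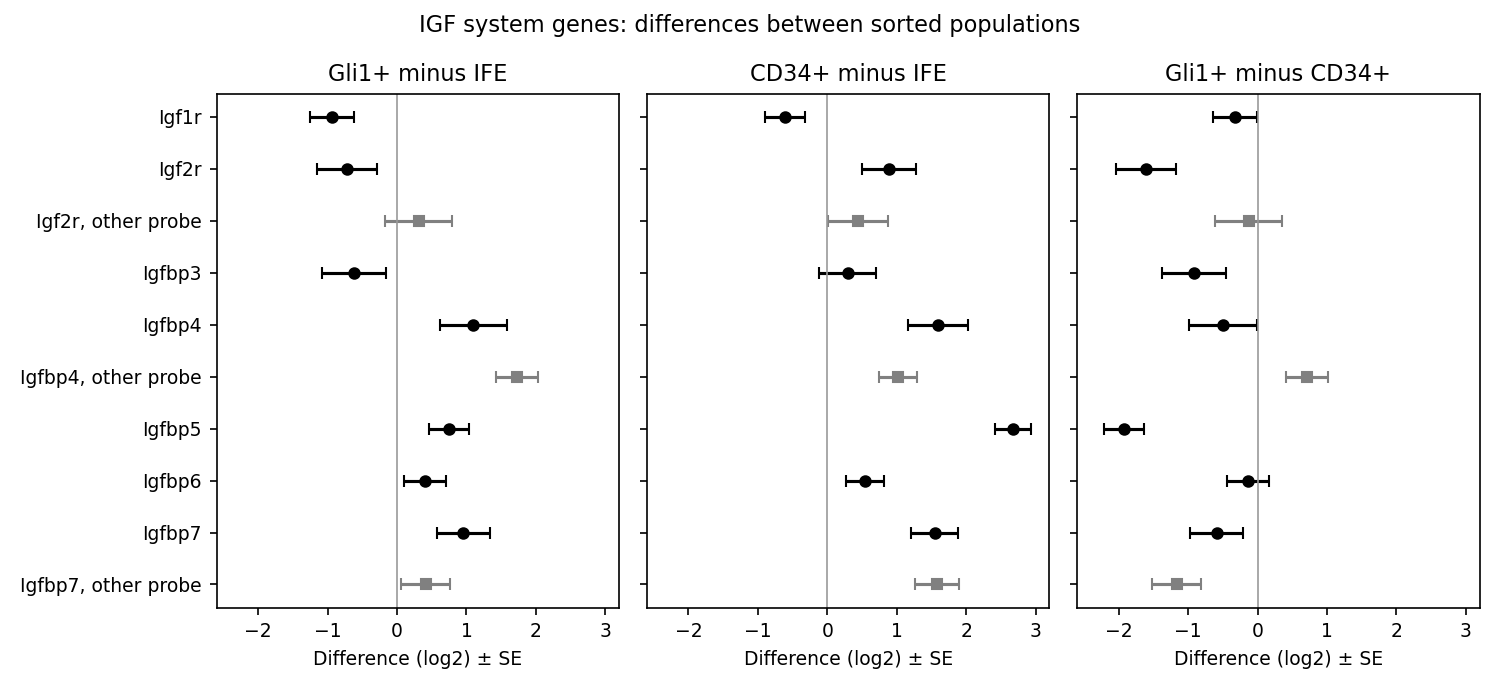
Difference in log2 level between sorted populations for the IGF system genes that entered the comparisons, with bars of 1 standard error from the fit over all 8 arrays. Black circles are the probe used for a gene and grey squares its other probe. Igfbp5 is farthest to the right for CD34+ minus IFE (2.67) and farthest to the left for Gli1+ minus CD34+ (-1.93), and the Igfbp4 probes lie on opposite sides of 0 for Gli1+ minus CD34+.

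Several IGFBP genes are expressed in fibroblasts, pericytes and endothelium, so markers of those cells were read beside them. Of 14 fibroblast and dermal papilla markers, 13 were on the array, and their summed linear level was 1328 to 1945 in Gli1+ cells, 2564 to 3304 in CD34+ cells and 1606 to 2106 in IFE cells. Of the 4 tested, Col1a2, Col6a1 and Sparc were higher in CD34+ than in IFE cells, beside 281 of 9545 genes in all. Col6a1 and Sparc were lower in Gli1+ than in CD34+ cells, beside 81 of 9545. Thy1, also tested, passed in no comparison, with means of 9.67 in Gli1+, 10.06 in CD34+ and 10.37 in IFE cells. Col3a1, Pdgfra, Lum, Twist2, Corin and Crabp1 were detected on no array, Dcn and Vim only on the Gli1+ array of replicate 3, and Col1a1 only on the CD34+ array of replicate 2. The pericyte and smooth muscle list, all 6 on the array, summed to 819.1 to 1392 in Gli1+ cells, 1075 to 1459 in CD34+ cells and 723.9 to 1148 in IFE cells, with Rgs5, Pdgfrb, Myh11 and Tagln detected on none. The 7 endothelial markers summed to 172.6 to 196.1, 181.4 to 223 and 188.4 to 208 on the Gli1+, CD34+ and IFE arrays, and Cdh5, Tie1 and Emcn were detected on none. Of 9 bulge markers, 5 (Cd34, Lgr5, Lhx2, Postn and Sox9) were higher in CD34+ than in IFE cells, beside 281 of 9545 genes in all. The first 4 of these were also higher in Gli1+ than in IFE cells, beside 124 of 9545. IFE cells were sorted as CD34-negative, so the Cd34 differences from them were set by the sort. Tcf7l1 of the same list had a mean of 5.59 in Gli1+ cells, below 6.36 in IFE and 6.87 in CD34+ cells. The summed level of the bulge list was 6984 to 7960 in Gli1+ cells, 9543 to 12970 in CD34+ cells and 3594 to 4330 in IFE cells. Mitf, from the melanocyte list, and Calml3, from the list of interfollicular and differentiating cells, were also higher in Gli1+ and in CD34+ than in IFE cells. Neither list had another call. Krt1, Krt10, Ly6d, Fgfbp1 and Krtdap, listed with Calml3, had lower means in CD34+ than in IFE cells, and Sbsn a higher one. Of these only Fgfbp1 was lower in Gli1+ than in IFE cells. That list summed to 12660 to 15230 in Gli1+, 6564 to 9322 in CD34+ and 7130 to 10770 in IFE cells. Beside Mitf, Mlana and Pmel averaged 4.88 and 5.29 in CD34+, 4.95 and 5.49 in IFE and 5.18 and 5.52 in Gli1+ cells. The melanocyte sums were 289.2 to 444.7 in Gli1+, 390.8 to 499 in CD34+ and 170.9 to 204.7 in IFE cells, with Dct, Tyr and Tyrp1 detected on no array. None of the 7 basal keratinocyte markers passed a comparison. The sums rest on few genes, and genes at background add to them too. In CD34+ cells Sparc and Thy1 were the highest of the fibroblast list, Acta2 and Cspg4 of the pericyte list and Mitf of the melanocyte list. No endothelial marker was detected on more than 2 arrays. The part of these cell types in the values of the binding protein genes was not tested.

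The genes most like the members with the highest and the lowest CD34+ minus IFE difference were found by the root mean square difference of log2 levels, each gene centred on its own mean over the 8 arrays, among 9545 genes. For Igfbp5 these were Strip2 (0.205), Camk4 (0.206), the hyaluronan synthase gene Has2 (0.251) and the collagen genes Col8a2 (0.259) and Col6a1 (0.315). Their CD34+ minus IFE differences ran between 2.47 and 2.97 and their Gli1+ minus IFE differences between 0.81 and 1.03, beside 2.67 and 0.74 for Igfbp5. For Igf1r they were Siglech (0.0988), Inpp5e (0.141), Maco1 (0.146), Eps15 (0.157) and Cpeb3 (0.162), at CD34+ minus IFE differences of -0.81 to -0.46. These likenesses describe the 8 arrays, which all genes share.

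**Figure D3:**
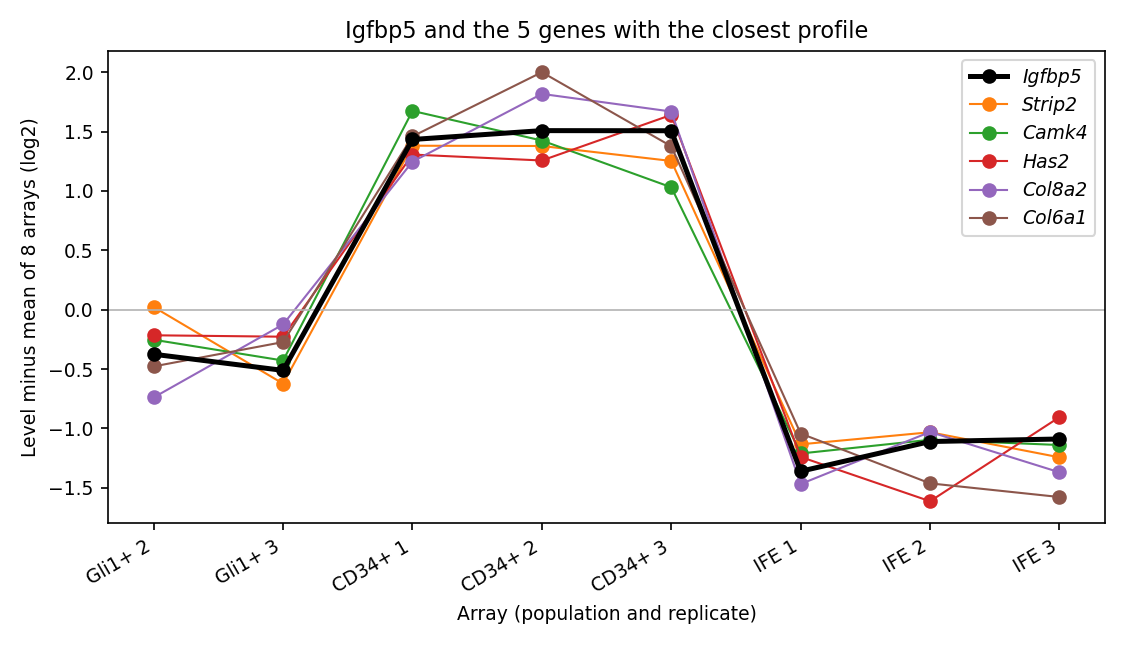
Level of Igfbp5 (black) and of the 5 genes with the closest profile, as log2 level minus the gene's mean over the 8 arrays, for each array by population and replicate. Lines join the arrays for reading only. All 6 genes are highest on the 3 CD34+ arrays, and the Gli1+ arrays lie between these and the IFE arrays.

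The remaining pathway was read from a list of 71 other genes, of which 62 were on the array and 49 entered the comparisons. The other 9 are not analysed here. Between CD34+ and IFE cells 2 of 49 passed, both lower, beside 4.80% of all genes, and the median difference was -0.16 against -0.01 over all genes. Between Gli1+ and IFE cells 3 of 49 passed, all lower, beside 2.16%, with medians of -0.06 for the list and -0.05 for all genes. Between Gli1+ and CD34+ cells none of 49 passed in limma, beside 1.42%, with medians of -0.01 and -0.05, and 8 of 49 had an unadjusted p under 0.05, against 17.5% of all genes. That unadjusted count was 16 of 49 for CD34+ minus IFE, against 16.9% of all genes, and 9 of 49 for Gli1+ minus IFE, against 17.6%.

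The genes that passed belong to the mTOR branch of the list, with 2 of 10 lower in Gli1+ than in IFE cells, and to its FoxO factors and targets, with 1 of 9 lower in Gli1+ and 2 of 9 lower in CD34+ than in IFE cells. FoxO factors are transcription factors that Akt keeps out of the nucleus, and Pdk4, which encodes a kinase that shuts down pyruvate dehydrogenase, is a known FoxO target. Pdk4 had levels of 4.93 and 4.94 on the Gli1+ arrays, 6.06, 5.05 and 6.35 on the CD34+ arrays and 7.93, 7.79 and 6.86 on the IFE arrays. The IFE values were above all others and no Gli1+ sample was detected. Pdk4 was at least 4.16-fold lower in Gli1+ than in IFE cells (-2.59 ± 0.46, limma adjusted p = 0.0246) and 3.26-fold lower in CD34+ than in IFE cells (-1.70 ± 0.41, adjusted p = 0.0438). With the replicate number as a block, the adjusted p were 0.082 and 0.0779. Both calls were also lost with the deposited values (0.0583 and 0.108) and with no detection filter (0.0572 and 0.0944). Array weights lost the Gli1+ call (0.194), and median centring (0.0899) and cyclic loess (0.063) the CD34+ call. Without 1 sample at a time, the CD34+ comparison failed whichever CD34+ or IFE sample was left out (adjusted p 0.0508 to 0.174, differences -2.04 to -1.32), and the Gli1+ comparison failed without IFE replicate 1 (-2.39) or IFE replicate 2 (-2.46).

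Fbxo32, a ubiquitin ligase gene known as a FoxO target in muscle, was lower in CD34+ than in IFE cells. It had levels of 7.69 and 7.75 on the Gli1+ arrays, 6.49, 6.72 and 5.69 on the CD34+ arrays and 8.01, 7.91 and 7.62 on the IFE arrays. The CD34+ values were below all others and the Gli1+ values overlapped the IFE values. The CD34+ minus IFE difference was -1.54 ± 0.32, 2.92-fold lower (limma adjusted p = 0.0243), and its other probes gave -1.54 and -1.82. Gli1+ minus CD34+ gave 1.42 ± 0.36 (adjusted p = 0.0855) with the probe used, and 1.05 and 0.03 with the others. Gli1+ minus IFE gave -0.12 with the probe used, and -0.48 and -1.79 with the others, so the place of Gli1+ cells depended on the probe. The CD34+ minus IFE call was lost without CD34+ replicate 1 or 3 or any single IFE sample, at -1.66 to -1.24.

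Sesn2, a stress-induced inhibitor of mTOR complex 1, had levels of 6.42 and 5.40 on the Gli1+ arrays, 6.45, 6.62 and 6.71 on the CD34+ arrays and 8.82, 7.37 and 8.39 on the IFE arrays. Every IFE value was above all others, and the Gli1+ sample of replicate 3 was not detected. Gli1+ cells were 4.86-fold lower than IFE cells (-2.28 ± 0.46, limma adjusted p = 0.0419; 0.117 with the replicate block), and CD34+ cells 3.03-fold lower without passing (-1.60 ± 0.41, adjusted p = 0.0604). The second Sesn2 probe gave -1.0 for Gli1+ minus IFE and -1.86 for CD34+ minus IFE. Median centring (limma adjusted p = 0.0614), no detection filter (0.0776) and the deposited values (0.0885) also lost the Gli1+ minus IFE call. So did the mean of probes (0.0707) and array weights (0.188). The Gli1+ minus IFE call was lost without Gli1+ replicate 3, where the difference was -1.78, without IFE replicate 1 (-1.97) or IFE replicate 3 (-2.18), and without any single CD34+ sample (-2.28).

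Gsk3b, which encodes a kinase inhibited by Akt, was set apart by the Gli1+ cells. Its levels were 5.78 and 5.67 on the Gli1+ arrays, 7.35, 7.16 and 7.10 on the CD34+ arrays and 7.52, 7.04 and 6.89 on the IFE arrays. Gli1+ values lay below all others, and CD34+ and IFE values overlapped. Gli1+ cells were 2.69-fold lower than IFE cells (-1.43 ± 0.31, limma adjusted p = 0.048; 0.123 with the replicate block) and 2.79-fold lower than CD34+ cells without passing (-1.48 ± 0.31, adjusted p = 0.0505). The Gli1+ minus IFE call was lost in 7 of 8 fits that left out 1 sample, all but the one without Gli1+ replicate 2, at differences of -1.56 to -1.24.

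The named genes upstream in the pathway did not pass in any comparison. The differences of the insulin receptor gene Insr were -0.13 ± 0.54 for Gli1+ minus IFE, -0.43 ± 0.48 for CD34+ minus IFE and 0.30 ± 0.54 for Gli1+ minus CD34+. Irs1, which encodes a docking protein of the insulin and IGF1 receptors, gave 0.66 ± 0.34, 0.13 ± 0.30 and 0.53 ± 0.34 in the same order, and its relative Irs2 gave 0.48 ± 0.54, 0.93 ± 0.48 and -0.45 ± 0.54. Grb10, an adaptor that inhibits both receptors, was at 4.98 and 4.90 on the Gli1+ arrays, 7.26, 5.68 and 6.44 on the CD34+ arrays and 5.15, 4.53 and 5.43 on the IFE arrays. CD34+ values of Grb10 were above all others, with limma adjusted p of 0.09 against IFE cells (1.42 ± 0.41) and 0.131 for Gli1+ minus CD34+ (-1.52 ± 0.46). Htra1, a protease that can cleave IGFBP5, was at 7.14 and 5.11 on the Gli1+ arrays, 6.12, 6.69 and 6.98 on the CD34+ arrays and 7.81, 7.64 and 7.83 on the IFE arrays, and the IFE values were the highest. Its adjusted p were 0.142 for Gli1+ minus IFE (-1.64 ± 0.53) and 0.241 for CD34+ minus IFE (-1.16 ± 0.47).

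Other named genes of the list had these values. The growth hormone receptor gene Ghr, whose product drives IGF1 synthesis in liver, was at 7.42 and 7.34 on the Gli1+ arrays, 6.72, 7.21 and 7.35 on the CD34+ arrays and 7.99, 8.21 and 8.58 on the IFE arrays. IFE values were the highest, and the differences were -0.88 ± 0.33 for Gli1+ minus IFE (limma adjusted p = 0.191) and -1.17 ± 0.29 for CD34+ minus IFE (adjusted p = 0.0525). M6pr, the other mannose 6-phosphate receptor gene, gave 0.01 ± 0.36 for Gli1+ minus IFE, 0.13 ± 0.32 for CD34+ minus IFE and -0.11 ± 0.36 for Gli1+ minus CD34+, with overlap throughout. Stc2, an inhibitor of the proteases that cleave IGFBP4 and IGFBP5, gave -0.10 ± 0.42, -0.03 ± 0.38 and -0.07 ± 0.42, and Foxo1 gave 0.21 ± 0.38, -0.02 ± 0.34 and 0.23 ± 0.38 in the same order. Foxo3 was detected on 1 array, and Igfbp1, Igfbpl1 and Stc1 on none.

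**Figure D4:**
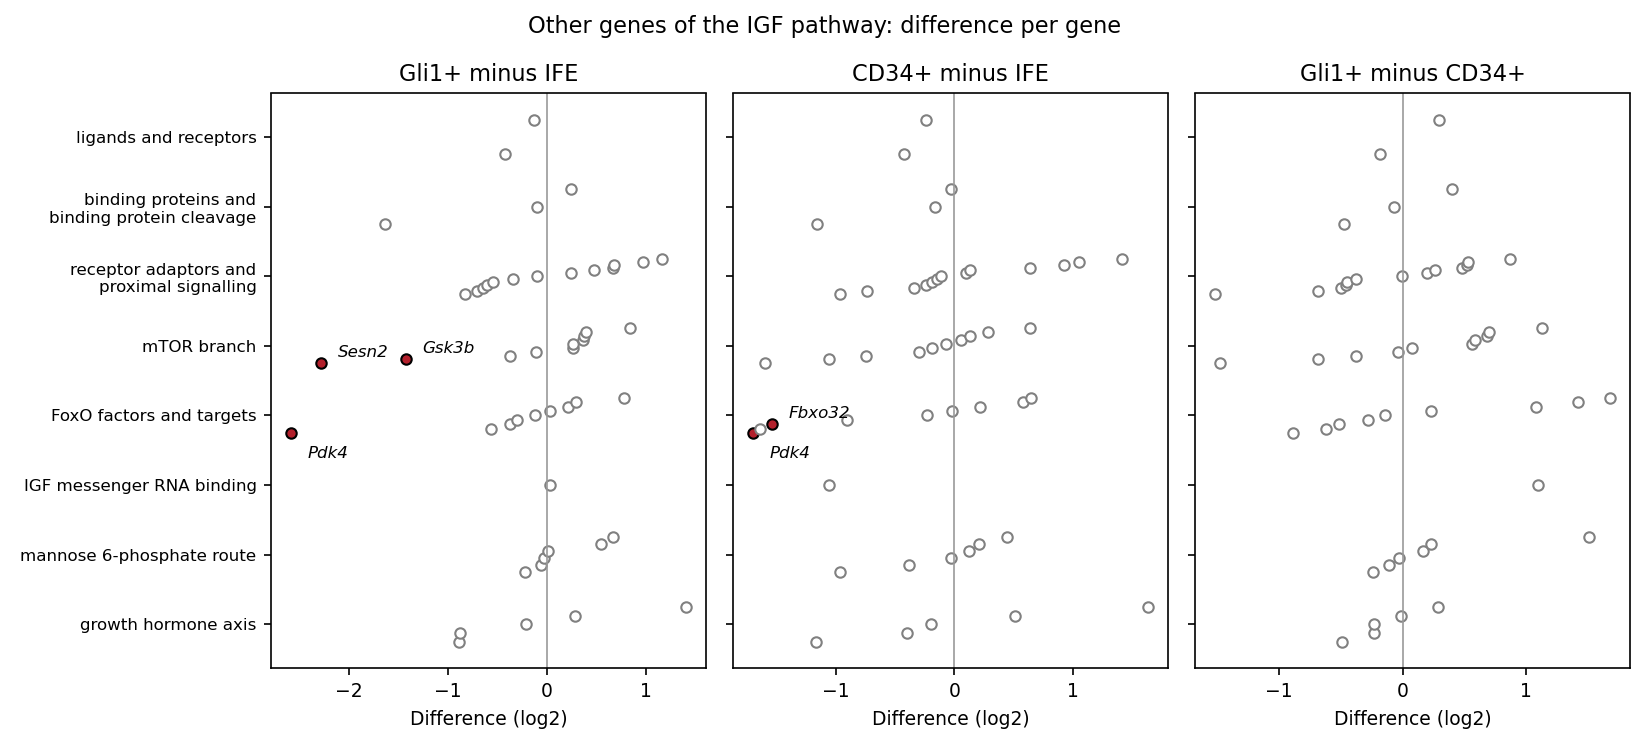
Difference in log2 level between sorted populations for the 49 other genes of the IGF pathway that entered the comparisons, grouped by role. Each symbol is a gene, with small vertical offsets for reading only, and filled symbols with names passed an adjusted p of 0.05 in limma. All 5 named symbols lie left of 0, 3 for Gli1+ minus IFE and 2 for CD34+ minus IFE.

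With CD34+ and IFE arrays fitted alone, an alternative chosen after seeing that the Gli1+ arrays differ from each other, 3 of the 7 members passed between CD34+ and IFE cells (Igfbp4, Igfbp5 and Igfbp7) among 820 genes in all. For this comparison, leaving out Gli1+ replicate 2 or Gli1+ replicate 3 gives that same fit, since a lone array adds no spread. In the same fit 8 of the 49 pathway genes passed. Fbxo32, Gadd45a, Ghr, Htra1, Pdk4, Sesn2 and Sos1 were lower in CD34+ cells, with adjusted p between 0.014 and 0.0415. Pik3r1, which encodes the regulatory subunit of PI3 kinase, was higher in CD34+ cells (1.05 ± 0.26, limma adjusted p = 0.037).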

How the data were processed

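Per the labels, Trizol RNA of sorted keratinocytes pooled from 2 mice was labelled by NuGEN Ovation Pico; GenomeStudio 2010.3 is named in the submitters' processing notes. Per the file headers, the authors deposited for each probe a mean intensity over beads with its standard error, the bead number and a detection p-value. The deposited log2 values equalled the log2 of these intensities, so neither was normalised by the authors.

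Intensities were background-corrected and quantile normalised with neqc (limma 3.58.1, R 4.3.3, offset 16, controls inferred from detection p). Of 25697 probes, 23978 had 1 symbol, 1719 are unnamed in the annotation used, and 23962 matched the RefSeq gene table. A probe was kept if its detection p was under 0.05 on 2 or more arrays, and the probe with the highest mean stood for its gene. The 8 arrays were fitted with lmFit and eBayes, 1 mean per population, two-sided, with Benjamini-Hochberg adjustment over 9545 genes in each comparison and a threshold of 0.05. The fit was tested on simulated data. Summed marker levels are sums of linear normalised intensities. Precision is limited by the number of arrays.

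The named genes were all members, Gli1 and Cd34, every listed pathway gene past the threshold, 12 further pathway genes as values, the 5 genes most like 2 of the members, and markers. Gadd45a, Sos1, Pik3r1, Socs2, Igf2bp3, Igfbp1, Igfbpl1 and Stc1 were added after their values were seen. The members and lists were chosen with earlier results of these data known. Since the design text describes cells of 2 pooled mice being sorted into the populations for every replicate, equal replicate numbers were taken to mark a shared pool. The deviations of such samples from group means correlated at -0.031 to 0.091. No genome build is given in the sources used here, so only RefSeq promoter windows carry coordinates. Alternatives were other background corrections, normalisations, filters, probe rules, array weights, the replicate block, the deposited values and leaving out each array.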

Additional observations from a re-analysis of the deposited data

How the results depend on the processing

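Of the counts of genes past the threshold, those over all genes ran from 189 to 820 for CD34+ minus IFE, 39 to 1233 for Gli1+ minus IFE and 1 to 1196 for Gli1+ minus CD34+ when 1 array was left out, against 458, 206 and 136 with all. The highest values, 1233 and 1196, came without Gli1+ replicate 2, where the lone Gli1+ array is assumed to vary like the other populations. The IGF system counts then ran from 1 to 3, 0 to 0 and 0 to 2 (2, 0 and 1 with all), and the other pathway counts from 0 to 8, 0 to 6 and 0 to 6 (2, 3 and 0). With the replicate block the counts were 346, 67 and 1 over all genes, 2, 0 and 0 of the members and 1, 0 and 0 of the pathway genes. With array weights they were 887, 3 and 1, with 3, 0 and 0 members and 7, 0 and 0 pathway genes. For Gli1+ minus CD34+, normexp with an offset of 50 gave 213 genes and no background correction 206. Pathway counts for CD34+ minus IFE were 5 and 6 in those settings and 1 with median centring or cyclic loess. For Gli1+ minus IFE they were 1 with median centring or no detection filter and 0 with the deposited values, and for Gli1+ minus CD34+ 1 with normexp, no background correction, median centring, cyclic loess, no filter, the stricter filter or the mean of probes. The CD34+ and IFE arrays alone gave 820 genes, 3 members and 8 pathway genes, the same fit for this comparison as leaving out either Gli1+ array. No call reversed. The median of all genes moved from -0.014 to 0.125 with median centring and 0.09 with the deposited values for CD34+ minus IFE, and from -0.054 to 0.097, 0.09 and, with cyclic loess, 0.055 for Gli1+ minus IFE. Among members, a sign turned for Igfbp3 without Gli1+ replicate 2, for Igfbp4 with the mean of probes (0.11, Gli1+ minus CD34+) and for Igfbp6 in 1 fit without an array (0.07, Gli1+ minus CD34+). Why calls changed was not tested. Members near the detection limit (Igf1, Igfbp2, Igfbp6, Igf1r in Gli1+ cells) have levels that these arrays cannot order.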

Other observations

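Socs2, a suppressor of growth hormone signalling that belongs to the listed pathway, was at 7.80 and 7.40 on the Gli1+ arrays, 8.23, 7.47 and 7.80 on the CD34+ arrays and 7.46, 5.44 and 5.69 on the IFE arrays. It was chosen after its values were seen, and it did not pass between Gli1+ and IFE cells (1.40 ± 0.56, limma adjusted p = 0.222) or between CD34+ and IFE cells (1.64 ± 0.50, adjusted p = 0.105). Igf2bp3, an IGF2 messenger RNA binding protein gene also chosen after its values were seen, was at 7.47 and 7.81 on the Gli1+ arrays, 5.70, 7.15 and 6.79 on the CD34+ arrays and 8.17, 7.04 and 7.62 on the IFE arrays. CD34+ values of Igf2bp3 overlapped the IFE values, and the limma adjusted p were 0.273 for Gli1+ minus CD34+ (1.10 ± 0.48) and 0.233 for CD34+ minus IFE (-1.06 ± 0.43).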
